A study of Mus musculus with 2 samples.

Results

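Among nuclei of mouse liver tumour tissue, 399 of 9632 barcodes met a rule for duct-like nuclei, a share of 4.14% (95% exact binomial interval 3.75% to 4.56%). The rule required at least 2000 unique molecular identifiers (UMIs), at most 5% of them from mitochondrial genes, and at least 5 UMIs of Pkhd1. It also required at least 3 UMIs summed over Asz1, Klhl13, Tinag, Slc35f1 and Pdgfd, and at most 3 summed over Tfeb and Ppargc1a. Fewer than 10 per 10,000 UMIs could come from the hepatocyte genes Cyp7b1, Abcb11 and Arg1, and at most 2 UMIs from the immune and sinusoid genes Ptprc, Stab2 and Reln. These barcodes are called ductal nuclei below.

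The series holds 2 samples labelled MRD-HCC 1 and MRD-HCC 2, where MRD-HCC stands for minimal residual disease of hepatocellular carcinoma, the main cancer of liver cells. Nuclei were isolated from frozen liver tissue with an area of residual tumour, and their RNA was captured in droplets and sequenced from its 3' end. The labels give no genotype, strain, age or treatment, and no control tissue was analysed here. All 17169 barcodes of the processed matrix carry 1 suffix that names no sample, so the nuclei form 1 pooled sample and no difference below has a replicate check or a p-value.

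Cholangiocytes line the bile ducts, modify bile by secreting chloride, bicarbonate and water, and carry a single primary cilium that faces the duct. They are known for keratins 7 and 19, the adhesion molecule EpCAM, the factor SOX9, and the chloride channel CFTR. Fibrocystin, the product of Pkhd1, sits in that cilium, and its loss causes cystic disease of kidney and bile ducts in human patients.

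In these nuclei the rule gene Asz1, a germ cell gene of the piRNA pathway, and Cftr stood next to each other on chromosome 6, with Cttnbp2, which codes for a cortactin-binding protein, on the far side of Cftr. The 3 genes lie at chr6:18050964-18109061 for Asz1, chr6:18170687-18322768 for Cftr and chr6:18366478-18514843 for Cttnbp2 (GRCm38, GENCODE M21). Their promoters are shown because Cftr and Cttnbp2, beside the rule gene Asz1, were high in ductal nuclei, and that of Ccl20 because this chemokine marked 1 cluster of them. Each is the stretch from 250 bases before to 50 bases after the start of the gene in RefSeq GRCm38.p6, written 5′ to 3′ on the strand of the gene, with matches to 1 short motif in capitals.
Asz1 promoter, chr6:18109012-18109311, minus strand: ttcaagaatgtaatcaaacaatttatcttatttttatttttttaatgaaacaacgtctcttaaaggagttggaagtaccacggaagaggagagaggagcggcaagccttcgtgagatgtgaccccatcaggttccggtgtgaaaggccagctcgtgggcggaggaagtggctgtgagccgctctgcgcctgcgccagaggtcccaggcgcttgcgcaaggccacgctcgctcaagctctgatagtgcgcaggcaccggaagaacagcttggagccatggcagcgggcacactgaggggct
Cftr promoter, chr6:18170437-18170736, plus strand: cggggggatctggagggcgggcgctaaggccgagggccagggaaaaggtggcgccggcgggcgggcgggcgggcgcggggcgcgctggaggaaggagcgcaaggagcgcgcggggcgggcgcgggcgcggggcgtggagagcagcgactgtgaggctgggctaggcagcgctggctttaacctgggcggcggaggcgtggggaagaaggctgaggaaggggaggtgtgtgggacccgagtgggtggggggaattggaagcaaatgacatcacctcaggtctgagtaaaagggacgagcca
Cttnbp2 promoter, chr6:18514820-18515119, minus strand: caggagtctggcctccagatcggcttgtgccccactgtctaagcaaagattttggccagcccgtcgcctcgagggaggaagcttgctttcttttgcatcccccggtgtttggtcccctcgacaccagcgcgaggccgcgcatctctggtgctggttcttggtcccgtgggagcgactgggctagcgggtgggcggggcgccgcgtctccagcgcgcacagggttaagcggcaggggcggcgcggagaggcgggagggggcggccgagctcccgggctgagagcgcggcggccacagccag
Ccl20 promoter, chr1:83116516-83116815, plus strand: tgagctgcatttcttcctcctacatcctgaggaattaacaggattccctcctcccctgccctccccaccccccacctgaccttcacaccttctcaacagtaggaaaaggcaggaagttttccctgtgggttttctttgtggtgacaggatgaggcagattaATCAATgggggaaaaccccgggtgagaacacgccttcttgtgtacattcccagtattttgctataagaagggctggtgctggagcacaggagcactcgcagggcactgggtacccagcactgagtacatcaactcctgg
The motif was ATCAAT, the core of the HNF6 (Onecut1) site, searched on both strands as ATCAAT or ATTGAT. The Ccl20 window held ATCAAT at position 162, counted from 1 at its 5′ end, and the other windows held neither string. Of 32851 RefSeq mouse promoters of the same length, 7.54% held it. The Cftr and Cttnbp2 windows were rich in G and C, at 71.3% and 69.3%, against 54.3% in the Asz1 window and 52.7% in that of Ccl20. The motif was chosen with the promoters already at hand, and a match is a description of letters, not of binding.

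The values that chose the nuclei are given here as a description. Pkhd1 ranged between 5 and 121 UMIs per nucleus, with a median of 16. Pdgfd, a growth factor ligand of the PDGF beta receptor, supplied 73.8% of the UMIs of the 5 summed genes and was found in 387 of 399 nuclei, with a median of 9 UMIs. It alone carried 366 nuclei past the sum of 3. Klhl13, an adaptor of a CUL3 ubiquitin ligase, had a UMI in 236 nuclei and Slc35f1, a solute carrier family member, in 90. Asz1 had a UMI in 123 nuclei and Tinag, which codes for a basement membrane protein first known from kidney tubules, in 60. Together 164 nuclei held a UMI of Asz1 or Tinag, and 19 held both, so these 2 genes were detected in a minority of the nuclei at this depth. Without Pdgfd, 180 of the 399 still reached a sum of 3.

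Near the thresholds, 19 nuclei stood at a sum of exactly 3 and 20 nuclei met all else but had a sum of 2. Levels are given as CPM, the UMIs summed over a set of nuclei and scaled to 1000000. Cftr was at 87.4 CPM inside and 158 CPM outside, Erbb4 at 1592 and 2076 CPM, and Tmem45a at 402 and 105 CPM. At the upper limit on Tfeb and Ppargc1a, 100 nuclei had exactly 3 UMIs, with Cftr at 261 CPM and Erbb4 at 2342 CPM. A further 90 nuclei had 4 UMIs and met all else, with Cftr at 207 CPM and Erbb4 at 2504 CPM. Cftr and Erbb4 were detected on both sides of both limits. Tmem45a was higher inside both, at 454 against 218 CPM at the limit on Tfeb and Ppargc1a. At the limit on Pkhd1, Tmem45a was at 186 CPM in 16 nuclei with 5 UMIs of Pkhd1, and at 338 CPM in 10 nuclei with 4. No intervals were worked out for these small sets, so counting error was not weighed in any step at a limit.

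Ductal nuclei were shallow, with 2003 to 20197 UMIs each, a median of 3355 and a sum of 1524209. They were set against 2 kinds of nuclei chosen by like limits. The first were 1991 Pkhd1-high nuclei with a 5-gene sum under 3 and more than 3 UMIs of Tfeb and Ppargc1a, at a median of 7391 UMIs, called Pkhd1-high comparison nuclei. The second were 1985 nuclei rich in the 3 hepatocyte genes and low in Pkhd1, at a median of 10250 UMIs, called hepatocyte-gene nuclei. Outside these sets, 576 Pkhd1-high nuclei had a 5-gene sum of at least 3 and more than 3 UMIs of Tfeb and Ppargc1a. Their median depth was 5424 UMIs. A further 138 Pkhd1-high nuclei had a 5-gene sum under 3 and at most 3 UMIs of Tfeb and Ppargc1a. The UMI limits depend on depth, which differed between the sets, and values with limits per 10,000 UMIs and after thinning to equal depth are among the alternatives given at the end. Free RNA was measured as the summed UMIs of 49929 uncalled droplets of 500 to 849 UMIs. A doublet caller marked 8 of the 399 ductal nuclei, and no barcode appeared more than once in the matrix. Intervals of levels and ratios are 95% exact intervals that cover counting error only, not the choice of comparison nuclei by their 5-gene sum. UMIs of the 3' end are counted per molecule and were not divided by gene length, so levels are compared between sets and not between genes.

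Ductal nuclei carried a broad cholangiocyte gene set that was far lower in hepatocyte-gene nuclei and in part lower in Pkhd1-high comparison nuclei. Of 11545 genes with at least 100 UMIs, 1051 were at least 2-fold higher in ductal than in Pkhd1-high comparison nuclei on the log2(CPM + 1) scale, or 9.1%, and 1050 were at least 2-fold lower, or 9.09%. Against hepatocyte-gene nuclei, 1748 of 11788 genes were at least 2-fold higher, or 14.8%, and 1598 at least 2-fold lower, or 13.6%. Against all 9233 other barcodes past the depth and mitochondrial limits, 1213 of 15649 genes were at least 2-fold higher, or 7.75%, and 2176 at least 2-fold lower, or 13.9%. For the 32 gene lists the minimum was 20 UMIs, and brackets after the median of a list hold its lowest and highest value under the alternatives named at the end, without the one that keeps cluster 3 alone. At that minimum 12.3% of 15221 genes were at least 2-fold higher and 10.0% at least 2-fold lower against Pkhd1-high comparison nuclei, with a median of 0.03 on the log2 scale. Against hepatocyte-gene nuclei, 18.6% of 15480 genes were at least 2-fold higher and 12.9% at least 2-fold lower, with a median of 0.16.

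Of the cholangiocyte identity genes, 11 of 19 were at least 2-fold higher in ductal than in Pkhd1-high comparison nuclei and 1 lower, with a median log2 ratio of 1.86 (1.37 to 2.20). Against hepatocyte-gene nuclei 17 of 18 were at least 2-fold higher and none lower, with a median of 4.04 (1.99 to 5.20). Bicc1, an RNA-binding protein of cystic kidney disease, had 2974 CPM in ductal nuclei, 725 CPM in Pkhd1-high comparison nuclei and 79.2 CPM in hepatocyte-gene nuclei. Glis3, a zinc finger factor of cilia and ducts, had 1918, 380.1 and 25.04 CPM in the same order. Spp1, which codes for osteopontin, had 631 CPM in ductal nuclei, 139 CPM in Pkhd1-high comparison nuclei and 32.6 CPM in hepatocyte-gene nuclei, with 359 CPM in free RNA. Cdh1, the epithelial cadherin, had 382, 67.7 and 10.8 CPM, and Epcam 91.2, 20.9 and 4.45 CPM. In these 5 genes ductal nuclei stood highest and hepatocyte-gene nuclei lowest. They do not stand for the whole list, of which 7 of 19 genes were within 2-fold of Pkhd1-high comparison nuclei and 1 was lower.

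The 2 textbook keratins of ducts had few UMIs. Krt7 had 30.8 CPM (22.7 to 41.0) in ductal nuclei, 2.82 CPM in Pkhd1-high comparison nuclei and 0.993 CPM in hepatocyte-gene nuclei. Krt19 had 15.7 CPM (10.1 to 23.4) in ductal nuclei, 10.7 CPM in Pkhd1-high comparison nuclei and 2.68 CPM in hepatocyte-gene nuclei. Free RNA held Krt19 at 17.5 CPM and was estimated at 24.3% of the UMIs of ductal nuclei. Sox9, a factor of duct identity, was no higher in ductal than in Pkhd1-high comparison nuclei, with 97.8 CPM (82.7 to 115) against 120.0 CPM (115 to 125), and had 19.3 CPM in hepatocyte-gene nuclei. Prom1, which codes for the stem cell antigen CD133, had 31.5 CPM in ductal nuclei, 0.36 CPM in Pkhd1-high comparison nuclei and 0.216 CPM in hepatocyte-gene nuclei.

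The genes with the highest ratios over Pkhd1-high comparison nuclei held several of duct and epithelial biology. Tmem45a, a transmembrane protein known from keratinocytes, had 546 CPM in ductal nuclei, 2.997 CPM in Pkhd1-high comparison nuclei and 4.49 CPM in hepatocyte-gene nuclei, a ratio over the comparison nuclei of 182-fold (137 to 247). Rassf9, a Ras association domain protein of recycling endosomes, had 295, 1.199 and 1.04 CPM in the same order, a ratio of 246-fold (158 to 407). Hnf4g, a nuclear receptor related to HNF4A, had 231, 1.44 and 13.3 CPM and a ratio of 161-fold (106 to 254). Each was lower in free RNA, at 7.75 CPM for Tmem45a, 5.54 CPM for Rassf9 and 6.82 CPM for Hnf4g. At an equal depth of 2000 UMIs per nucleus, Tmem45a had a UMI in 42.6% of ductal nuclei, 0.452% of Pkhd1-high comparison nuclei and 1.66% of hepatocyte-gene nuclei. Before thinning these shares were 52.6%, 1.71% and 3.38%.

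Secreted, adhesion and transport proteins were also among the genes with the highest ratios. Angpt1, the ligand of the endothelial receptor TIE2, had 202 CPM in ductal nuclei, 0.959 CPM in Pkhd1-high comparison nuclei and 8.89 CPM in hepatocyte-gene nuclei. Mmp7, matrilysin, had 201, 2.58 and 1.295 CPM, and Sftpd, a surfactant collectin, had 90.5, 1.26 and 4.01 CPM. Tnfrsf19, a receptor of the TNF family also known as TROY, had 104, 0.539 and 4.27 CPM. Tenm3, a teneurin adhesion protein, had 1065 CPM in ductal nuclei against 19.7 CPM in Pkhd1-high comparison nuclei, yet 207 CPM in hepatocyte-gene nuclei. Nebl, which codes for the actin-binding protein nebulette, had 394, 6.35 and 33.2 CPM. Nipal2, a magnesium transporter family member, had 219, 2.82 and 1.21 CPM, and Ehf, an ETS factor of epithelia, 96.4, 2.28 and 0.432 CPM. For all of these the ductal level was the highest of the 3 sets.

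**Figure D1:**
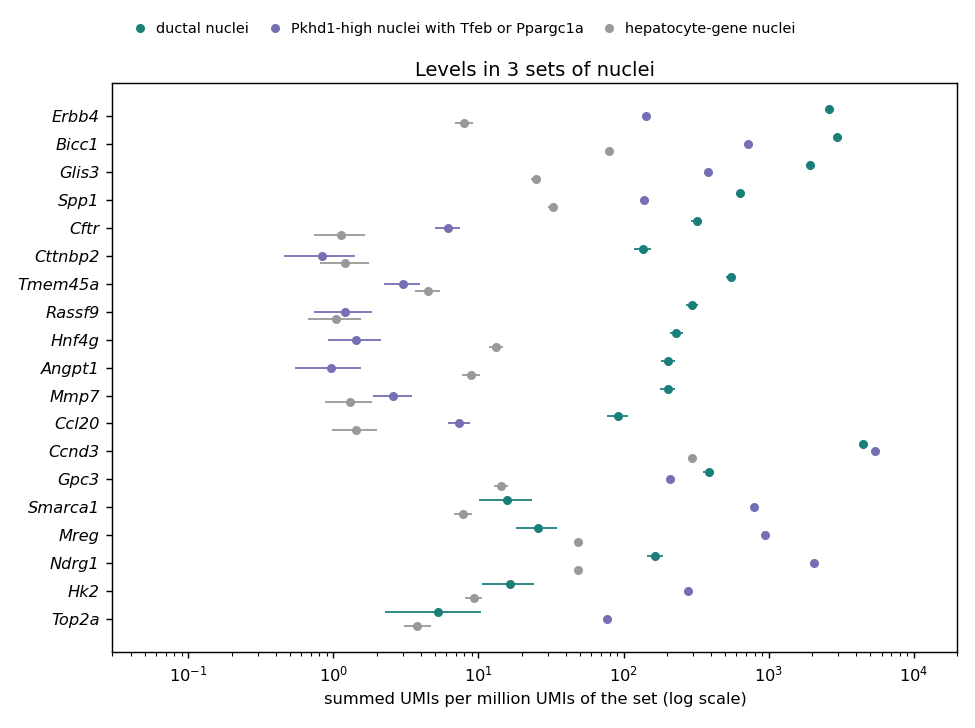
Levels of 19 genes outside the rule, as summed CPM of each set on a log axis, with 95% exact Poisson intervals as lines, in ductal, Pkhd1-high comparison (labelled by Tfeb or Ppargc1a) and hepatocyte-gene nuclei. Cftr stood at 320.2, 6.17 and 1.12 CPM in the 3 sets, while Smarca1 stood at 15.7, 789 and 7.86 CPM.

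Genes of secretion included Cftr, the chloride channel through which ducts respond to secretin. It had 320.2 CPM (292 to 349.9) in ductal nuclei, 6.17 CPM in Pkhd1-high comparison nuclei and 1.12 CPM in hepatocyte-gene nuclei, a ratio of 51.9-fold (41.9 to 64.8) over the comparison nuclei. A Cftr UMI was found in 32.6% of ductal nuclei, 0.703% of Pkhd1-high comparison nuclei and 0.453% of hepatocyte-gene nuclei at 2000 UMIs each, and in 43.4%, 3.26% and 1.11% before thinning. The hepatocyte-gene share is no measure of the background in ductal nuclei. Free RNA was estimated at 14.8% of UMIs in hepatocyte-gene nuclei and 24.3% in ductal nuclei. Among all other barcodes past the limits, the Cftr share was 2.43% at equal depth and 5.07% before thinning. Sctr, the secretin receptor, had 327 CPM in ductal nuclei, 212 CPM in Pkhd1-high comparison nuclei and 4.06 CPM in hepatocyte-gene nuclei. Ano1, a calcium-gated chloride channel, had 87.3, 12.5 and 7.73 CPM, and Slc5a1, a sodium and glucose cotransporter, 117, 11.4 and 5.396 CPM. Slc10a2, the apical bile acid transporter, had 55.8, 8.27 and 99.03 CPM, with hepatocyte-gene nuclei highest. In the whole list of secretion and transport genes, 7 of 18 were at least 2-fold higher and 2 lower than in Pkhd1-high comparison nuclei, with a median of 0.72 (0.46 to 0.87). Against hepatocyte-gene nuclei the numbers were 10 higher and 1 lower of 17, with a median of 1.37 (0.68 to 2.33).

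The neighbours of Cftr did not all share its pattern. Cttnbp2 had 135 CPM in ductal nuclei, 0.839 CPM in Pkhd1-high comparison nuclei and 1.21 CPM in hepatocyte-gene nuclei, a ratio of 161-fold (93.8 to 299.8) over the comparison nuclei. On the other side of Asz1, St7 had 123, 142 and 185 CPM, Capza2, which codes for an actin capping subunit, had 55.1, 50.5 and 37.9 CPM, and Wnt2, a Wnt ligand, had 1.97, 0.839 and 0.648 CPM. Kcnd2, a potassium channel beyond Cttnbp2, had 1.31, 0.959 and 3.37 CPM. Farther out, Cav1, the main caveolar protein, had 18.4, 2.04 and 4.79 CPM, and Met, the receptor of hepatocyte growth factor, 258, 139 and 173 CPM. Of 8 locus genes with enough UMIs, 4 were at least 2-fold higher than in Pkhd1-high comparison nuclei, namely Cftr, Cttnbp2, Cav1 and Cav2. Cftr and Cttnbp2 were thus high beside the rule gene Asz1, whose own level is fixed by the rule, St7 and Capza2 differed by less than 2-fold between the sets, and Wnt2 and Kcnd2 were near 0. The median of the locus list against Pkhd1-high comparison nuclei was 1.18, and 0.10 when Pdgfd was left out of the 5-gene sum, an alternative chosen after seeing the data.

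Most other listed genes of germ cells and of the piRNA pathway had no UMI in ductal nuclei. The share of all genes without a UMI in these shallow nuclei was not worked out, so counts of such genes are descriptions only. Of 15 on the list, 9 had none in the 1524209 UMIs of ductal nuclei, which allows each at most 1.97 CPM, and these included Ddx4, Dazl, Mael, Piwil1 and Mov10l1. The list summed to 20.99 CPM in ductal nuclei, 49.9 CPM in Pkhd1-high comparison nuclei, 20.2 CPM in hepatocyte-gene nuclei and 22.6 CPM in free RNA, with Sycp3 and Tex14 supplying 14 and 10 of the 32 ductal UMIs. Of 16 kidney tubule genes, kidney tubules being the textbook site of Tinag, 9 had no UMI, Umod and Aqp2 among them. That list summed to 41.99 CPM in ductal nuclei, 34.2 CPM in Pkhd1-high comparison nuclei, 8.68 CPM in hepatocyte-gene nuclei and 23.0 CPM in free RNA. Of its genes with at least 20 UMIs, 1 of 4 was at least 2-fold higher and 1 lower than in Pkhd1-high comparison nuclei, and 2 of 3 were higher and none lower than in hepatocyte-gene nuclei. Of the 64 ductal UMIs of that list, 42 came from Tinagl1, the close relative of Tinag, which had 27.6 CPM in ductal nuclei, 16.7 CPM in Pkhd1-high comparison nuclei and 1.9 CPM in hepatocyte-gene nuclei.

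Of genes of the cilium and of polycystic disease, the pathway of Pkhd1 itself, 10 of 23 were at least 2-fold higher in ductal than in Pkhd1-high comparison nuclei and none lower, with a median of 0.98 (0.76 to 1.17). Against hepatocyte-gene nuclei 11 of 23 were higher and 1 lower, with a median of 0.95 (0.57 to 1.15). Pkd2, which codes for polycystin-2, had 133 CPM in ductal nuclei, 42.3 CPM in Pkhd1-high comparison nuclei and 9.15 CPM in hepatocyte-gene nuclei, whereas Pkd1 had 43.3, 39.6 and 34.9 CPM. Dzip1l, a transition zone protein mutated in a recessive polycystic kidney disease, had 67.6, 17.9 and 5.18 CPM. Genes of polycystic liver disease that act in the endoplasmic reticulum differed less, with Sec63 at 239, 226 and 412 CPM and Ganab at 57.7, 70.01 and 92.9 CPM. Outside the list, Kif27, a kinesin of motile cilia, had 58.4 CPM in ductal nuclei, 0.899 CPM in Pkhd1-high comparison nuclei and 0.345 CPM in hepatocyte-gene nuclei.

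Among transcription factors of liver and duct, 11 of 28 were at least 2-fold higher and 3 lower than in Pkhd1-high comparison nuclei, and 8 higher and 7 lower of 27 than in hepatocyte-gene nuclei. Onecut1 and Onecut2, shared by ducts and hepatocytes, had 545 and 781 CPM in ductal nuclei, 125 and 58.9 CPM in Pkhd1-high comparison nuclei and 699 and 465 CPM in hepatocyte-gene nuclei. Prox1, a factor of hepatocyte and progenitor cells, had 284, 70.5 and 301 CPM in that order. In these 3 genes ductal nuclei were nearer to hepatocyte-gene nuclei than to Pkhd1-high comparison nuclei. Nr1h4, the bile acid receptor, had 291, 654 and 908 CPM, and Ppara, a receptor of fatty acid oxidation, 147, 283 and 636 CPM, both lowest in ductal nuclei. Zeb2, a factor of epithelial to mesenchymal change, had 85.3 CPM in ductal nuclei, 383 CPM in Pkhd1-high comparison nuclei and 115 CPM in hepatocyte-gene nuclei.

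Receptors and ligands of growth factors included Erbb4, a receptor of the neuregulins, at 2587 CPM (2507 to 2669) in ductal nuclei, 143 CPM in Pkhd1-high comparison nuclei and 7.94 CPM in hepatocyte-gene nuclei. The ratio was 18.1-fold (17.2 to 19.1) over the comparison nuclei and 326-fold (281 to 379.6) over hepatocyte-gene nuclei, and a UMI was found in 71.4%, 12.3% and 1.96% of nuclei at equal depth. Egfr was highest in hepatocyte-gene nuclei, with 873 CPM in ductal nuclei, 499 CPM in Pkhd1-high comparison nuclei and 8331 CPM in hepatocyte-gene nuclei. Of the ligands, Hbegf had 19.03, 6.05 and 2.29 CPM and Nrg4, a ligand of ERBB4, 97.1, 27.2 and 228 CPM, highest in hepatocyte-gene nuclei. The list as a whole had 5 of 10 genes at least 2-fold higher and 1 lower than Pkhd1-high comparison nuclei, and 5 higher and 3 lower of 9 against hepatocyte-gene nuclei. Beside Pdgfd of the rule, Pdgfc, a ligand of the PDGF alpha receptor, had 476 CPM in ductal nuclei, 232 CPM in Pkhd1-high comparison nuclei and 76.8 CPM in hepatocyte-gene nuclei. The receptors Pdgfra and Pdgfrb were at 3.28 and 5.905 CPM in ductal nuclei, below the 13.4 and 21.2 CPM of free RNA. Ductal nuclei thus held PDGF ligand transcripts and few receptor UMIs.

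In the Notch pathway, which sets duct fate in the developing liver, 3 of 10 genes were at least 2-fold higher and 2 lower than in Pkhd1-high comparison nuclei. The ligand Jag1 had 186 CPM in ductal nuclei, 71.03 CPM in Pkhd1-high comparison nuclei and 10.8 CPM in hepatocyte-gene nuclei, and the target Hes1 88.6, 41.8 and 29.3 CPM. The mastermind coactivators split, Maml2 having 491 CPM in ductal nuclei against 53.9 CPM in Pkhd1-high comparison nuclei, and Maml3 322 against 1364 CPM. Of Hippo pathway genes and YAP targets, 6 of 16 were at least 2-fold higher than in Pkhd1-high comparison nuclei and none lower, and 10 of 15 higher than in hepatocyte-gene nuclei, with a median of 2.22 (1.47 to 2.67). The target Ccn1 had 72.2 CPM in ductal nuclei, 7.91 CPM in Pkhd1-high comparison nuclei and 5.91 CPM in hepatocyte-gene nuclei, and the DNA-binding partner Tead4 45.9, 9.35 and 1.81 CPM. The target Ankrd1 was an exception, with 175 CPM in ductal nuclei, 339 CPM in Pkhd1-high comparison nuclei and 8.98 CPM in hepatocyte-gene nuclei.

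Integrins, the receptors of the basement membrane, were at least 2-fold higher in ductal nuclei for 7 of 13 genes against Pkhd1-high comparison nuclei, with a median of 1.51 (1.23 to 1.73), and for 8 of 13 against hepatocyte-gene nuclei, with a median of 2.12 (1.78 to 2.75), and none was lower. Itgb8, which activates TGF-beta, had 339.8 CPM in ductal nuclei, 82.0 CPM in Pkhd1-high comparison nuclei and 6.95 CPM in hepatocyte-gene nuclei. Itgb6, which also activates TGF-beta, had 106, 19.8 and 0.82 CPM, Itgb4, the laminin receptor of hemidesmosomes, 47.2, 4.68 and 1.25 CPM, and Itga2, a collagen receptor, 59.05, 4.97 and 6.86 CPM. Basement membrane genes were mixed, with 10 of 20 at least 2-fold higher and 4 lower than in Pkhd1-high comparison nuclei. Lama3, a laminin chain of epithelia, had 27.6 CPM in ductal nuclei, 1.86 CPM in Pkhd1-high comparison nuclei and 20.5 CPM in hepatocyte-gene nuclei. The paired collagen genes of the X chromosome stood lower than in Pkhd1-high comparison nuclei, with Col4a5 at 215 against 528 CPM and Col4a6 at 40.7 against 296 CPM. Of the desmosome and polarity genes, Dsg2, a desmosomal cadherin, had 652 CPM in ductal nuclei, 38.4 CPM in Pkhd1-high comparison nuclei and 78.4 CPM in hepatocyte-gene nuclei, and Patj, a scaffold of the apical Crumbs complex, 421, 147 and 131 CPM.

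Chemokines and NF-kB targets included Ccl20, which draws CCR6-bearing lymphocytes and is a listed marker of these nuclei. It had 91.2 CPM (76.7 to 108) in ductal nuclei, 7.37 CPM in Pkhd1-high comparison nuclei and 1.42 CPM in hepatocyte-gene nuclei, with 17.8 CPM in free RNA. A UMI was found in 8.52%, 1.105% and 0.453% of nuclei at equal depth, and in 12.8%, 2.91% and 1.36% before thinning, so most ductal nuclei had none. Ccl2, a monocyte chemokine, had 81.4 CPM in ductal nuclei, 11.1 CPM in Pkhd1-high comparison nuclei and 1.94 CPM in hepatocyte-gene nuclei. Csf1, the macrophage growth factor, had 139, 33.6 and 11.4 CPM, and Relb, an NF-kB subunit, 104, 39.6 and 12.1 CPM. Lcn2, lipocalin-2, had 276, 125 and 147 CPM but 531 CPM in free RNA, which was estimated at 24.3% of the UMIs of ductal nuclei. The part of its ductal level that came from free RNA was not worked out. The list had 10 of 22 genes at least 2-fold higher and 1 lower than Pkhd1-high comparison nuclei, and 15 higher and 3 lower of 21 against hepatocyte-gene nuclei.

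In the TGF-beta family, 3 of 16 genes were at least 2-fold higher and 1 lower than in Pkhd1-high comparison nuclei. Bmp4 had 27.6 CPM in ductal nuclei, 2.28 CPM in Pkhd1-high comparison nuclei and 6.86 CPM in hepatocyte-gene nuclei, and Inhba, an activin subunit, 102, 14.2 and 148 CPM.

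Other genes were lower in ductal than in Pkhd1-high comparison nuclei. Of markers of the Pkhd1-high tumour nuclei, a list drawn from these same data, 7 of 12 were at least 2-fold lower and none higher, with a median of -1.79 (-2.00 to -1.40). Ahnak2, a large scaffold protein, had 30.8 CPM in ductal nuclei against 505 CPM in Pkhd1-high comparison nuclei, and Slc8a3, a sodium and calcium exchanger, 49.2 against 445 CPM. Smarca1, a chromatin remodeller of the ISWI family, had 15.7 CPM in ductal nuclei, 789 CPM in Pkhd1-high comparison nuclei and 7.86 CPM in hepatocyte-gene nuclei, and was 50.1-fold (33.7 to 78.3) lower than in the comparison nuclei. Mreg, melanoregulin, had 25.6, 936 and 48.5 CPM, Chst11, a chondroitin sulfotransferase, 13.1, 438 and 13.7 CPM, and Grm3, a glutamate receptor, 2.62, 131 and 1.55 CPM. Mylk2, a myosin kinase, had no UMI in ductal nuclei against 37.7 CPM in Pkhd1-high comparison nuclei, so it was at least 19.2-fold lower with a floor of 3 UMIs over the set. Aox4, an aldehyde oxidase, had 2 UMIs in ductal nuclei against 84.3 CPM in Pkhd1-high comparison nuclei, a ratio of 64.3-fold (17.8 to 531) lower.

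Hypoxia genes differed between ductal and Pkhd1-high comparison nuclei. In this list 12 of 14 were at least 2-fold lower in ductal than in Pkhd1-high comparison nuclei and none higher, with a median of -1.62 (-2.07 to -1.04). Against hepatocyte-gene nuclei the same list had 2 higher and 1 lower of 12, with a median of 0.26 (0.11 to 0.44). Ndrg1, a gene induced by low oxygen, had 165 CPM in ductal nuclei, 2055 CPM in Pkhd1-high comparison nuclei and 48.2 CPM in hepatocyte-gene nuclei. P4ha1, a collagen prolyl hydroxylase, had 86.6, 313 and 91.95 CPM, and Hif1a itself 112, 354 and 87.4 CPM. Of glycolysis genes, 7 of 16 were lower than in Pkhd1-high comparison nuclei and none higher, with Hk2, a hexokinase of tumours, at 16.4 CPM in ductal nuclei, 278 CPM in Pkhd1-high comparison nuclei and 9.32 CPM in hepatocyte-gene nuclei.

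Transcripts of division were lower in ductal than in Pkhd1-high comparison nuclei. Of cell cycle genes, 14 of 20 were at least 2-fold lower than in Pkhd1-high comparison nuclei and none higher, with a median of -2.54 (-3.39 to -1.05), and the list summed to 278 CPM in ductal nuclei, 750.0 CPM in Pkhd1-high comparison nuclei, 135 CPM in hepatocyte-gene nuclei and 251 CPM in free RNA. Top2a, a topoisomerase of dividing cells, had 5.25 CPM (8 UMIs) in ductal nuclei, 76.7 CPM in Pkhd1-high comparison nuclei and 3.799 CPM in hepatocyte-gene nuclei, and Mki67 had 3.28, 36.3 and 2.504 CPM. Pola1, a DNA polymerase subunit, made up most of the ductal sum, with 175 CPM against 279.9 CPM in Pkhd1-high comparison nuclei. Lysosome genes, targets of the Tfeb family, had 6 of 19 lower and none higher than Pkhd1-high comparison nuclei, which were chosen partly on Tfeb. Genes of the respiratory chain and of PGC-1 partners had 1 of 16 lower and none higher.

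Of oncofetal genes, silent in adult liver and active in fetal liver and liver cancer, 1 of 9 was at least 2-fold higher in ductal than in Pkhd1-high comparison nuclei and 2 lower. The median was 0.48 (-0.17 to 0.58). The list summed to 831 CPM in ductal nuclei, 2225 CPM in Pkhd1-high comparison nuclei, 151 CPM in hepatocyte-gene nuclei and 680 CPM in free RNA. Of its 14 genes, 3 had no UMI in ductal nuclei, and the share of all genes without one was not worked out. Gpc3, glypican-3, had 385 CPM in ductal nuclei, 210.3 CPM in Pkhd1-high comparison nuclei and 14.4 CPM in hepatocyte-gene nuclei. Igf2bp2, an RNA-binding protein, had 9.19, 244 and 23.7 CPM, and the imprinted gene Peg3 288, 1659 and 48.1 CPM. Ccnd3, cyclin D3, had 4501 CPM (4395 to 4609) in ductal nuclei, 5412 CPM in Pkhd1-high comparison nuclei and 297 CPM in hepatocyte-gene nuclei. Over all ductal nuclei Ccnd3 was therefore near the Pkhd1-high comparison level, but single clusters differed, as described below.

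**Figure D2:**
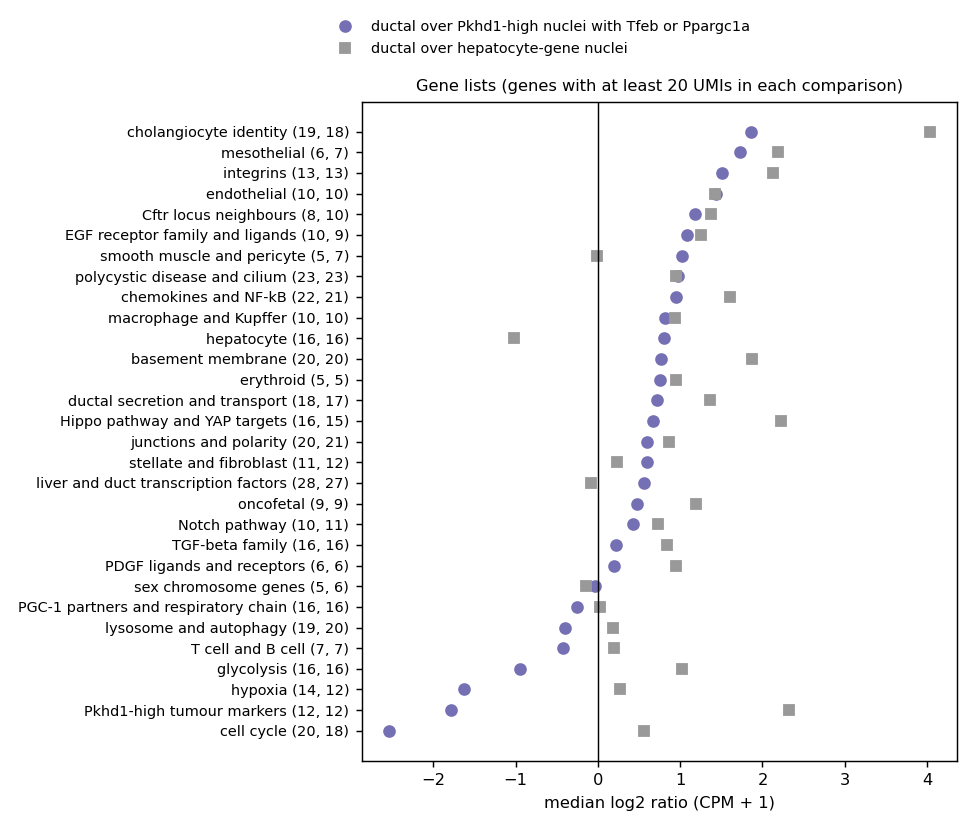
Median log2 ratio of 30 gene lists, with ductal nuclei over Pkhd1-high comparison nuclei as circles and over hepatocyte-gene nuclei as squares; the numbers in brackets are the genes of each list with at least 20 UMIs in each comparison. Cholangiocyte genes lay at 1.86 and 4.04, and cell cycle genes at -2.54 and 0.56.

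RNA of other cells was measured in the same nuclei. The 16 hepatocyte genes summed to 14679 CPM in ductal nuclei, 7789 CPM in Pkhd1-high comparison nuclei, 20762 CPM in hepatocyte-gene nuclei and 59226 CPM in free RNA. Alb, albumin, had 6036, 3134 and 4678 CPM in the 3 sets and 25622 CPM in free RNA. Urea cycle gene Cps1, in contrast, had 318 CPM in ductal nuclei, 234 CPM in Pkhd1-high comparison nuclei and 2866 CPM in hepatocyte-gene nuclei, with 1272 CPM in free RNA. The 12 macrophage genes summed to 143 CPM in ductal and 74.2 CPM in Pkhd1-high comparison nuclei, with 499.9 CPM in free RNA. The 12 stellate and fibroblast genes summed to 213, 115 and 578 CPM. The 5 erythroid genes summed to 344, 212 and 1446 CPM. For each of these lists free RNA was higher than ductal nuclei. With free RNA subtracted, the median of the hepatocyte list against Pkhd1-high comparison nuclei was 0.00, against 0.80 as counted.

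Endothelial genes were high in a few ductal nuclei, and mesothelial genes were highest in 1 cluster. Over all 399, 8 of 10 endothelial genes were at least 2-fold higher than in Pkhd1-high comparison nuclei, with a median of 1.43 and a sum of 265 against 135 CPM. A group of 9 nuclei summed to 4335 CPM for this list, with all 10 genes detected, while the other 390 summed to 112 CPM. Without the 9, 1 of the 10 genes was at least 2-fold higher and 2 lower, with a median of 0.16. The 9 also had Cftr at 397 CPM, Bicc1 at 1824.5 CPM and Epcam at 90.3 CPM, so both sets of genes were read in their droplets. Of the 9, 5 were marked by the doublet caller, against 0 of the other 48 nuclei of their cluster. For mesothelial genes, 3 of 6 were at least 2-fold higher, with a sum of 125 CPM in ductal nuclei and 33.3 CPM in Pkhd1-high comparison nuclei. Of the 10 members, 7 were detected in ductal nuclei, Msln and Wt1 among them. Lrrn4, Muc16 and Bnc1 had no UMI and Upk3b had 1. Upk1b, a uroplakin, and Gpm6a, a membrane glycoprotein, made up much of the sum, and both were highest in cluster 3, described below. The list also holds the duct keratins Krt7 and Krt19. It summed to 417 CPM in the 68 nuclei of cluster 3 and 64.1 CPM in the other ductal clusters.

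Ductal nuclei varied among themselves. Clustering on 1000 variable genes outside the rule and the gene lists gave 5 clusters of 131, 109, 68, 57 and 34 nuclei, numbered by size. Since the clusters were made from these nuclei, their differences are descriptions. Median depth ran between 2900 UMIs in cluster 1 and 4935.5 in cluster 5. No doublet was called in clusters 1 to 3, against 5 in cluster 4 and 3 in cluster 5. Cluster 1 had no strong leading gene, and the leading genes of cluster 2 included Brinp3 and the axonemal genes Enkur and Cfap54. Several of the leading genes of cluster 4 are known from endothelium, and those named here were far higher in the 9 nuclei above than in the rest of the cluster. Mecom had 957 CPM in the 9 and 60.6 CPM in the other 48 nuclei of cluster 4, Ldb2 had 1644 and 14.0 CPM, and Ptprb, an endothelial phosphatase, 1373 and 28.0 CPM. Erbb4 had its peak in cluster 2, with 4369 CPM in cluster 2 against 2311, 3338, 1234 and 454 CPM in clusters 1, 3, 4 and 5. Cluster 5 had A2m and Rad51b among its leading genes and had lower levels of duct genes than cluster 1, with Bicc1 at 1172 CPM, Epcam at 31.7 CPM and Rassf9 at 52.8 CPM, against 3113, 98.2 and 263 CPM in cluster 1.

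Ccl20 was concentrated in cluster 4. It had 311 CPM there, with a UMI in 26 of 57 nuclei, or 45.6%, against 74.2 CPM in cluster 1, 31.1 CPM in cluster 2, 3.82 CPM in cluster 3 and 58.1 CPM in cluster 5. At equal depth the share was 33.3% in cluster 4, 5.34% in cluster 1, 4.59% in cluster 2, 0% in cluster 3 (0 of 68, exact interval up to 5.28%) and 8.82% in cluster 5. Ccl2 followed it, at 363 CPM in cluster 4 against 43.1, 2.59, 19.1 and 10.6 CPM in clusters 1, 2, 3 and 5. The 9 nuclei with endothelial genes lay in cluster 4. Among the other 48 nuclei of cluster 4, Ccl20 was at 387 CPM and Ccl2 at 429 CPM, with endothelial genes at 107 CPM, so neither chemokine rested on the 9. Cftr was also highest in cluster 4, at 567 CPM against 218, 321, 356 and 143 CPM in clusters 1, 2, 3 and 5.

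Cluster 3, with 68 nuclei, stood apart from the other 331 in 2 ways, by its duct genes and by Ccnd3. Its leading genes were Fgf12, with 577 CPM in cluster 3 against 3.96 CPM in the other clusters, Kcnma1, a calcium-gated potassium channel, with 1151 against 27.7 CPM, and the epithelial factor Grhl2, with 199 against 0.792 CPM. Most of the high Kcnma1 and Fgf12 ratios of ductal nuclei thus came from 68 nuclei. Krt19 had 65.0 CPM in cluster 3 against 5.54 CPM in the others, and a UMI in 14.7% against 0.906% of nuclei at equal depth. Prom1 had 80.3 against 21.4 CPM, Ctnnd2, a delta catenin, 145 against 12.7 CPM, and Ehf 245 against 65.7 CPM. Upk1b had 138 against 0.792 CPM and Gpm6a 168 against 13.5 CPM. Summed levels of other duct genes differed less, with Cftr at 356 against 313 CPM, Bicc1 at 2649.8 against 3041 CPM, Epcam at 91.8 against 91.1 CPM and Spp1 at 669 against 623 CPM. Fewer nuclei of cluster 3 held a Cftr UMI, however, at 19.1% against 35.3% at equal depth and 29.4% against 46.2% before thinning.

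Several genes were lower in cluster 3. Gpc3 had 34.4 CPM in cluster 3 against 458 CPM in the other clusters, with a UMI in 10.3% against 50.5% of nuclei, or 5.88% against 37.8% at equal depth. The neural cadherin Cdh2 had 72.6 against 364 CPM, and Ccn1 had no UMI in cluster 3 against 87.1 CPM. Of the 2 genes that name the nuclei, Asz1 or Tinag had a UMI in 7 of 68 nuclei of cluster 3 and in 157 of 331 others. Across all genes with at least 20 UMIs, 5.64% of 9396 were at least 2-fold higher and 10.2% at least 2-fold lower in cluster 3. At a higher clustering resolution, which gave 8 clusters, all 68 nuclei stayed in 1 cluster of 68.

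Ccnd3 separated cluster 3 from the other clusters. It had 551 CPM (464 to 648) in cluster 3 against 6150.1, 5102, 4677 and 4847 CPM in clusters 1, 2, 4 and 5, and 5412 CPM in Pkhd1-high comparison nuclei, 297 CPM in hepatocyte-gene nuclei and 824 CPM in free RNA. Per nucleus, the median was 5.64 per 10,000 UMIs in cluster 3, with a range of 0 to 20.6, against medians of 52.6, 40.8, 48.0 and 46.1 in clusters 1, 2, 4 and 5. Pkhd1-high comparison nuclei had a median of 46.7 and hepatocyte-gene nuclei 1.71. Cluster 3 was thus the only ductal cluster nearer to hepatocyte-gene nuclei than to Pkhd1-high comparison nuclei in this gene. It stayed above hepatocyte-gene nuclei and was the only ductal cluster below the free RNA level. The part of its level that came from free RNA was not worked out. Ccnd3 had been left out of the clustering.

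**Figure D3:**
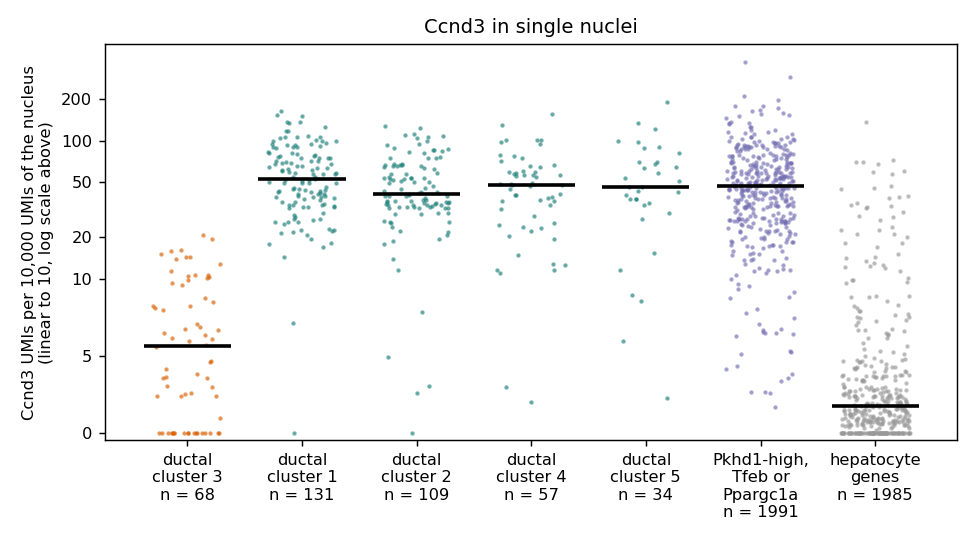
Ccnd3 UMIs per 10,000 UMIs in single nuclei, on an axis that is linear to 10 and logarithmic above, with at most 400 nuclei drawn per set and the median of all nuclei as a line. The 68 nuclei of cluster 3 lie between 0 and 20.6, while the medians of the other ductal clusters lie between 40.8 and 52.6.

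Ccnd3 did not differ alone. A stretch of chromosome 17 between Mrps10 and Gm49896, chr17:47368887-48572187, held 24 genes outside the rule with enough UMIs, and was chosen after their values were seen. Ratios were counted over the 15 of them with at least 100 UMIs in hepatocyte-gene nuclei, and the shares beside them are those of all 11437 genes that met this minimum. In cluster 3, 3 of the 15 were at least 2-fold higher than in hepatocyte-gene nuclei, with a median log2 ratio of 0.48, beside 15.1% of all genes. The 3 were Tomm6, Oard1 and Unc5cl, with 61, 21 and 60 UMIs in cluster 3. In the other ductal clusters 13 of the 15 were at least 2-fold higher, with a median of 2.50, beside 12.7% of all genes. In Pkhd1-high comparison nuclei 13 of the 15 were higher, with a median of 3.72, beside 12.6% of all genes. The 24 genes summed to 1793 CPM in cluster 3, 10337 CPM in the other ductal clusters, 14413 CPM in Pkhd1-high comparison nuclei and 1026 CPM in hepatocyte-gene nuclei. Tfeb lies inside the stretch and was used to choose both ductal and Pkhd1-high comparison nuclei, so its own values are not counted. Whether its neighbours were selected along with it was not tested, so their levels in these sets are descriptions.

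The stretch held genes of general cell function. Mrps10, a mitochondrial ribosomal protein, had 80.3 CPM in cluster 3, 495 CPM in the other ductal clusters, 1256 CPM in Pkhd1-high comparison nuclei and 84.1 CPM in hepatocyte-gene nuclei. Taf8, a subunit of the general factor TFIID, had 42.1, 269, 568 and 36.0 CPM in the same order, and Nfya, a CCAAT-binding factor, 68.8, 305, 1024 and 53.0 CPM. Tomm6, a subunit of the mitochondrial import pore, differed little between cluster 3 and the other clusters, with 233, 243, 414 and 97.5 CPM. Unc5cl, a relative of netrin receptors, had 229 CPM in cluster 3, 1012 CPM in the other ductal clusters, 417 CPM in Pkhd1-high comparison nuclei and 8.03 CPM in hepatocyte-gene nuclei. It was thus lower in cluster 3, and higher in the other clusters, than in Pkhd1-high comparison nuclei. Of 14 genes to the left of the stretch with the same minimum, 1 was at least 2-fold higher than in hepatocyte-gene nuclei in cluster 3, and none in the other ductal clusters or in Pkhd1-high comparison nuclei. Of 10 to the right, 1 was higher in cluster 3, 2 in the other clusters and 2 in Pkhd1-high comparison nuclei. The ends of the stretch were set with these values known, so the counts on either side are no separate check. Summed per nucleus, the 24 genes had a median of 18.2 per 10,000 UMIs in cluster 3, with a range of 5.94 to 45.1, and medians of 111, 101, 97.1 and 111 in clusters 1, 2, 4 and 5. Clustering without these genes put all 68 nuclei into 1 cluster of 69.

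**Figure D4:**
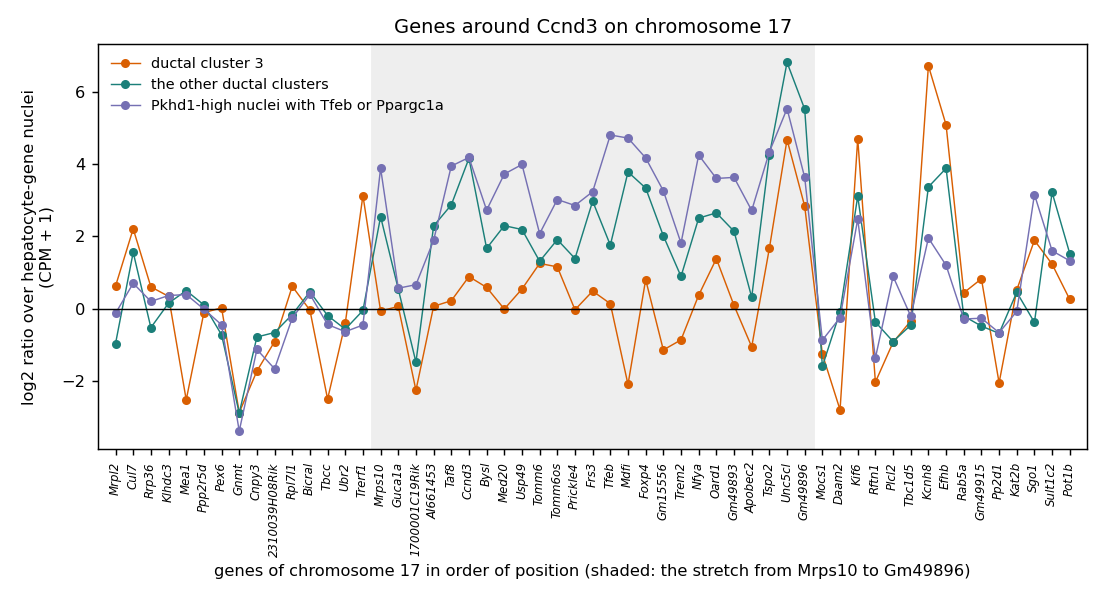
Log2 ratio over hepatocyte-gene nuclei, on CPM + 1, of genes around Ccnd3 in order of position on chromosome 17, for cluster 3, the other ductal clusters and Pkhd1-high comparison nuclei; the shaded stretch holds the 24 genes and Tfeb. Ccnd3 stands at 0.89 in cluster 3, 4.16 in the other ductal clusters and 4.18 in Pkhd1-high comparison nuclei, while genes with few UMIs in cluster 3 scatter widely.

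Over whole chromosomes, ductal nuclei differed from Pkhd1-high comparison nuclei in small steps. The median log2 ratio of chromosome 1 genes was 0.28 below that of all genes, with 718 genes, that of chromosome 15 was 0.23 below, with 471 genes, and that of chromosome 4 was 0.25 above, with 678 genes. Set against hepatocyte-gene nuclei, cluster 3 lay 0.04 below all genes on chromosome 1, the other ductal clusters lay 0.00 above and Pkhd1-high comparison nuclei 0.27 above. On chromosome 15 the values were 0.10, 0.13 and 0.34, and on chromosome 4 they were -0.02, -0.08 and -0.28. On these 3 chromosomes, described for their large steps, both ductal groups were nearer to hepatocyte-gene nuclei than the Pkhd1-high comparison nuclei were. That held for 11 of 20 chromosomes, while on 3 both were farther and on 6 the 2 ductal groups differed in this. Chromosome X lay the other way, at 0.27 in cluster 3, 0.21 in the other ductal clusters and 0.02 in Pkhd1-high comparison nuclei. Chromosome 10 lay at 0.01, 0.17 and 0.14. Copy number was not measured.

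**Figure D5:**
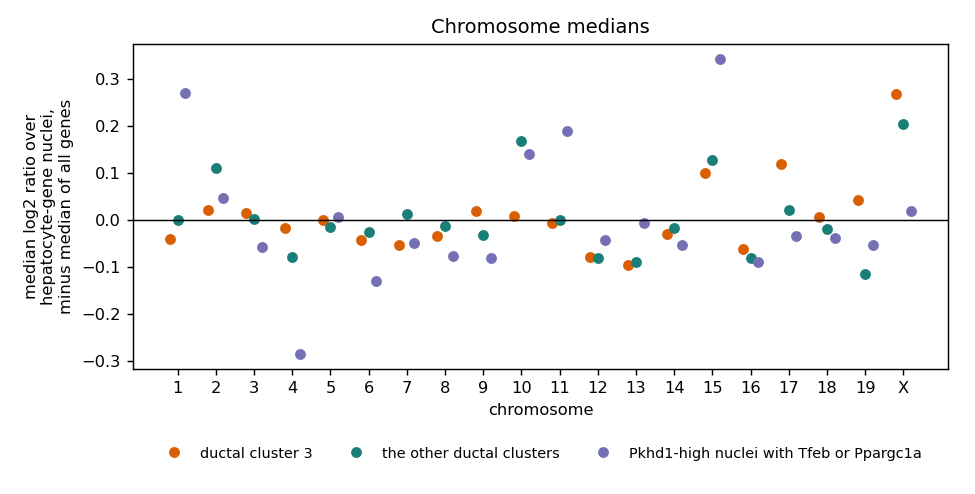
Median log2 ratio over hepatocyte-gene nuclei for the genes of each chromosome, minus the median of all genes, for cluster 3, the other ductal clusters and Pkhd1-high comparison nuclei. Chromosome 1 lies at -0.04, 0.00 and 0.27, and chromosome 4 at -0.02, -0.08 and -0.28.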

How the data were processed

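Nuclear RNA was counted as UMIs per gene and barcode. The authors deposited 1 processed and 1 raw matrix of UMI counts, made with Cell Ranger 5.0 on mm10 per the submitters' processing notes; the file headers give 5.0.0 and, for the raw matrix, 4. The processed matrix held 17169 barcodes and 95130408 of the 147834570 UMIs of the raw one, over 32285 genes, of which 32235 matched GENCODE M21. Counting of introns was not given in the sources used here. The authors' counts were used as deposited, with 0 sample columns left unused.

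The rule was applied to raw UMIs, and UMIs were summed per set and scaled to CPM. As there is 1 pooled sample, no test was run. Intervals are exact (Poisson for levels, conditional binomial for ratios, Clopper-Pearson for shares). Log2 ratios used log2(CPM + 1), on which genes were ranked, and ratios of at least 2-fold with at least 100 UMIs (20 for lists) were counted. The folds printed for single genes, with their intervals, are ratios of CPM without a pseudocount. Genes at 0 were given a floor of 3 UMIs over the set. Shares were also taken after thinning each nucleus to 2000 UMIs; no nucleus of the 3 sets was shallower. Doublets were called with Scrublet in scanpy 1.11.5 and kept, 323 of 9632 barcodes being marked. Clusters came from Leiden (leidenalg 0.10.2; 20 components, 15 neighbours, resolution 0.5). Python 3.11.15, numpy 2.4.6, scipy 1.17.1 and pandas 2.3.3 were used, and the counting was tested on simulated data.

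Some genes are counted in the lists but not reported here by name. Named genes were those with the highest and lowest ratios against each set, the most abundant genes, and list members. The rule, the lists and the named members were chosen with earlier results of these data known. Alternatives covered depth, mitochondrial limits, the rule's sums, doublets, pseudocount, centring, free RNA, thinning, UMI minimum, comparison nuclei and resolution. Those leaving out clusters or Pdgfd were chosen after seeing the data.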

Additional observations from a re-analysis of the deposited data

How the results depend on the processing

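No paired analysis was possible because all nuclei form 1 pooled sample, and for the same reason no replicate could be left out. There were 18 alternatives in all, and those on the clustering and the UMI minimum were not applied to lists and single genes. Of 1856 values of lists and genes under the others, 1526 stayed within 0.5 on the log2 scale. Sign changed in 69 values, of which 40 moved by more than 0.5 and 7 had been at least 1 in size; those 7 follow. With cluster 3 alone, Ccl20 was at -0.80 and Unc5cl at -0.86 against Pkhd1-high comparison nuclei, and Ahnak2 at -0.96 against hepatocyte-gene nuclei. The mesothelial list was at -0.29 against Pkhd1-high comparison nuclei when Pdgfd was left out of the sum. Against hepatocyte-gene nuclei the kidney tubule list was at -0.13 with limits per 10,000 UMIs, and the endothelial list at -0.13 after thinning and -0.051 without the 9 nuclei. The number of ductal nuclei was 132 (2.03%) at a minimum of 4000 UMIs and 180 (1.87%) without Pdgfd.

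Genes at least 2-fold higher than in Pkhd1-high comparison nuclei numbered 684 with a pseudocount of 10 CPM, 530 after thinning and 1867 at 20 UMIs. Those lower numbered 533 with that pseudocount, 658 after thinning, 1577 with free RNA subtracted and 2159 in cluster 3 alone. Against hepatocyte-gene nuclei, 1125, 706 and 2885 were higher under the same 3 settings, and 976 lower with that pseudocount and 2432 in cluster 3 alone. Against all other barcodes, 569 were higher with that pseudocount, 703 after thinning and 1889 in cluster 3 alone, and 740 lower with that pseudocount and 4412 in cluster 3 alone. The cause of these shifts was not tested. Lists with a median of at least 1 over Pkhd1-high comparison nuclei, 7 in the report, numbered 2 with that pseudocount and 3 without cluster 3, without Pdgfd or with comparison nuclei of any 5-gene sum. Lists at -1 or less, 3 in the report, numbered 6 in cluster 3 alone and 5 with limits per 10,000 UMIs, with free RNA subtracted, after thinning or without Pdgfd. Against hepatocyte-gene nuclei, lists of at least 1, 14 in the report, numbered 6 with that pseudocount and 9 after thinning. Lists at -1 or less, 1 in the report, numbered 0 with that pseudocount or without clusters 4 and 5, and 3 in cluster 3 alone. A resolution of 1 gave 8 clusters. Thinning gave a share of 8.52% for Ccl20 and 32.6% for Cftr.

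Free RNA was estimated at 24.3% of UMIs in ductal nuclei, 14.0% in Pkhd1-high comparison nuclei and 14.8% in hepatocyte-gene nuclei. At 1524209 UMIs in all, a gene with no UMI in ductal nuclei may still have up to 1.97 CPM.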
